A study of Mus musculus with 160 samples.

Results

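The cell cycle genes described here were 46 genes, of the 23420 rows in the deposited table, whose products copy DNA or separate chromosomes. They were chosen by name, and every name was found on 1 row. Of these, 16 formed an S-phase list (Mcm2 to Mcm7, Pcna, Rrm1, Rrm2, Tyms, Cdc6, Cdc45, Gins2, Ccne1, Ccne2 and E2f1), 26 formed a mitotic list and 4 further replication genes (Ung, Chaf1b, Slbp and Rfc4) were kept apart. All 46 were above 1 TPM (transcripts scaled to a fixed total, a level that is corrected for transcript length and for the total of the cell) in more than 30 of the 160 cells. They were therefore among the 9674 genes compared between groups. The cells were mouse C57BL/6 cells sorted one by one for RNA sequencing: 65 induced hematopoietic endothelial cells (iHECs) and, as induced hematopoietic progenitor cells (iHPCs), 21 cells of day 14, 18 of day 17 and 56 of day 21 of induction, which are days 3, 6 and 10 of maturation. According to the study's methods, all groups came from pluripotent stem cells with a doxycycline-inducible Runx1-p2a-Hoxa9 cassette in Rosa26. Doxycycline was added at day 6 of induction, before the iHECs were sorted, so iHECs and iHPCs had both received it. The iHECs were sorted before maturation. The iHPCs had since matured, with doxycycline continued, over OP9-DL1 stroma, feeder cells with a Notch ligand. The labels name embryonic and induced pluripotent stem cells without assigning a cell to either, and the study describes the sequenced iHECs and iHPCs as derived from the edited embryonic stem cells. The iHECs were sorted as CD31+CD41lowCD45-c-kit+CD201high, the iHPCs of days 14 and 17 as CD45+ cells without lineage markers, and those of day 21 as Ter119-CD45+c-kit+CD127+. Day, sort gate and culture on stroma therefore cannot be told apart between iHECs and day 14, nor day and sort gate between days 17 and 21.

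A dividing cell passes through a gap phase, a phase of DNA synthesis (S phase), a second gap and mitosis. Genes for the replication machinery are switched on around the start of S phase, largely through E2F transcription factors, once cyclin-dependent kinases have inactivated the retinoblastoma protein. Genes for spindle, kinetochore and cytokinesis proteins follow later, through the MuvB complex with B-Myb and FoxM1, which reaches many of their promoters at an element named the cell cycle genes homology region (CHR).

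Promoter sequences of the members are shown because the groups of genes that were read separately also differ in their letters. RefSeq promoters of the mouse assembly GRCm38.p6, each running from 250 bases before a gene's start to 50 bases after it, were matched by symbol for 13 of the 16 S-phase genes, 21 of the 26 mitotic genes and all 4 others. The letters TTTGAA, the usual core of a CHR, were searched on both strands and stood in 16 of the 21 mitotic promoters (76.2%). The same letters stood in 2 of 14 S-phase promoters (14.3%, Mcm7 having 2 entries) and in 17.9% of all 32851 promoters in the table. CCAAT, searched on both strands, was in 18 of the 21 mitotic promoters against 37.4% of all, and 15 mitotic promoters held both (71.4%, against 6.95% of all). E2F-type letters (the letters TTCCCGC or else TTGGCGC, also TTCGCGC and then TTGCCGC, on both strands, where matches may overlap) were in 8 of the 14 S-phase promoters (57.1%), in 3 of the 21 mitotic promoters (14.3%) and in 9.57% of all. A variant CHR (TTCGAA) was found in 3 mitotic promoters and 1 S-phase promoter, against 1.56% of all. These matches describe letters in a fixed window, and binding was not measured. Capitals mark TTTGAA on either strand in the first pair of sequences (Cdk1, the kinase that drives entry into mitosis, and Cdc20, the activator of the ubiquitin ligase that starts anaphase) and the E2F-type letters in the second pair (Mcm6, a subunit of the replicative helicase, and Cdc6, which loads that helicase).
Cdk1, minus strand of chr10:69352863-69353162: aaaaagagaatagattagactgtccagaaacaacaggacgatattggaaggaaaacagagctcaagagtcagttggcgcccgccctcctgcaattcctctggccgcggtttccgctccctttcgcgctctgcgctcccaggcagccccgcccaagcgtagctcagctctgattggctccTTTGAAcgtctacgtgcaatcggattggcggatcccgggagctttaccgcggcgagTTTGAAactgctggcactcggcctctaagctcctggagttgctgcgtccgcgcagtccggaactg
Cdc20, minus strand of chr4:118437294-118437593: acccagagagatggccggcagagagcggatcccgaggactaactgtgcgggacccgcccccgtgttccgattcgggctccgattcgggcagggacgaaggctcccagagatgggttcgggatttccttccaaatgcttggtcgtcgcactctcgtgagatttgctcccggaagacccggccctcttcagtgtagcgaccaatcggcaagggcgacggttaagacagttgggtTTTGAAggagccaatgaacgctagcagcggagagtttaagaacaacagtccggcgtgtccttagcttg
Mcm6, minus strand of chr1:128359656-128359955: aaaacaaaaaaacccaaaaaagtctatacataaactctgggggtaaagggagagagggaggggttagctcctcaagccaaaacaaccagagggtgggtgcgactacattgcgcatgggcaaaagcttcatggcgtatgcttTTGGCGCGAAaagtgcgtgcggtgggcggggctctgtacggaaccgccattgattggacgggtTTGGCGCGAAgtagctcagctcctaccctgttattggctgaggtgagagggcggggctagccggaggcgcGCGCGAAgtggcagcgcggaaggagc
Cdc6, plus strand of chr11:98907901-98908200: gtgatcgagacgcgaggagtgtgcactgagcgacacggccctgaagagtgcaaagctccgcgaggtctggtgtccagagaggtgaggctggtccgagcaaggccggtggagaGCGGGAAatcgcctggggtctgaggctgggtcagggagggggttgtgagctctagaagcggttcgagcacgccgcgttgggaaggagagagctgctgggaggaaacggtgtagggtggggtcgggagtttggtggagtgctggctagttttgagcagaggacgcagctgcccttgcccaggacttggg
Counted from the gene start as 0, the CHR letters of Cdk1 began at -71 and -15 and those of Cdc20 at -18. The E2F-type letters of Cdc6 began at -138. Those of Mcm6 began at -109, -106, -46, -43 and 24, the first pair and the pair after it overlapping. Cdk1 also held E2F-type letters, at -178 and -130. Gene starts here are those of RefSeq. The window of Cdc6 lies wholly inside the gene as GENCODE vM21 annotates it, with a start at 98907801. Some other windows, such as that of Kif2c, also lie inside the gene so annotated.

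Each group counted as 1 sample, since the labels name no culture, animal or experiment for a cell. No test was run for this reason, no difference has a replicate check, and every SD is the spread between cells. The deposited TPM values keep neither read counts nor depth. The number of genes above 1 TPM in a cell, which stands in for it, had a median of 4926 in iHECs (3309 to 7533), 8200 at day 14 (3103 to 9333), 8101 at day 17 (6536 to 9658) and 6696 at day 21 (3188 to 7950). Endothelial markers (Cdh5 and 7 others) averaged 6.35 on the log2(TPM + 1) scale in iHECs and at most 0.78 in any iHPC group, and blood markers (Ptprc and 7 others) averaged 2.18 in iHECs and 7.10 to 8.08 in iHPCs. At day 14 and at day 17, 1 cell each held at most 4 of the 8 blood markers above 1 TPM. Both cells had all 26 mitotic and all 16 S-phase members above 1 TPM. Of 8 stromal markers (Col1a1 and 7 others), 1 day-17 cell held at least 4 above 1 TPM, and no cell of the other groups did. Whether it was the day-17 cell low in blood markers was not read. Over the tested genes, 9 pairs of cells were nearly identical: 4 iHEC pairs (Pearson r 0.963 to 0.991, next highest pair 0.699), 1 day-17 pair (0.985, next 0.819) and 4 day-14 pairs (0.924 to 0.956, next 0.901). Whether such a pair is 1 cell under 2 names was not tested, and the results are also given with each pair counted once.

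In the step from iHEC to day 14, both lists were higher by far more than the typical gene. The S-phase list averaged 2.47 ± 1.73 (SD between cells) on the log2(TPM + 1) scale in the 65 iHECs, 6.99 ± 0.62 in the 21 day-14 cells, 7.64 ± 0.49 in the 18 day-17 cells and 6.27 ± 1.37 in the 56 day-21 cells. The mitotic list averaged 1.55 ± 2.11, 5.66 ± 0.84, 5.19 ± 1.13 and 4.43 ± 2.12 in the same order. The S-phase list was thus highest at day 17 and the mitotic list at day 14, while both were most uneven in iHECs and at day 21. Between days 14 and 17 the S-phase mean differed by 0.65, slightly more than the SD of either day, and the mitotic mean by -0.47, less than the SD of either day.

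**Figure D1:**
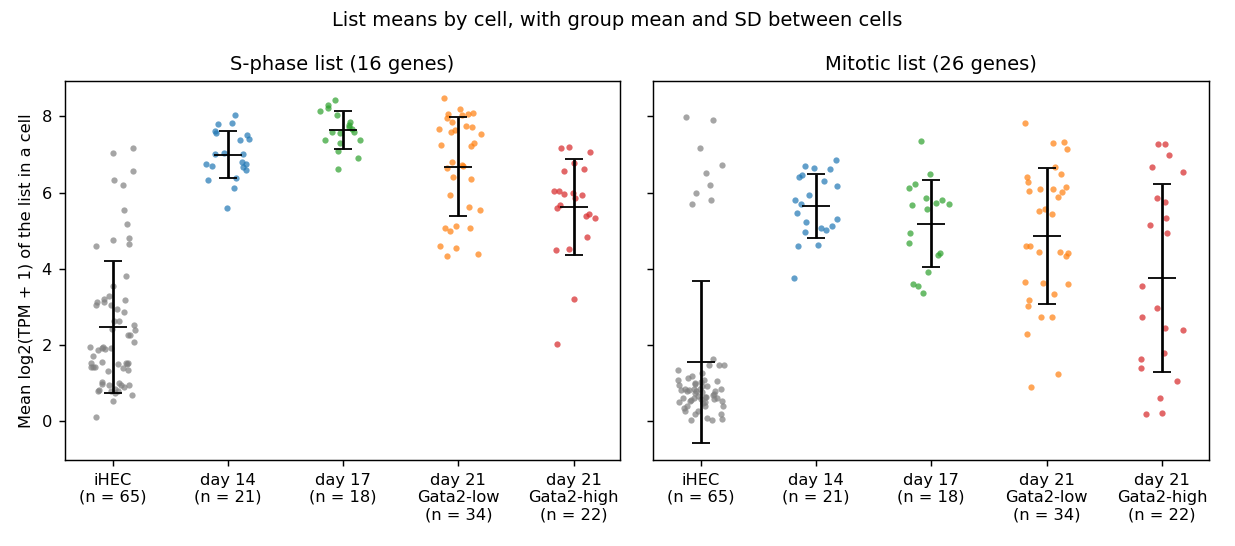
Mean log2(TPM + 1) of the 16 S-phase genes (left) and the 26 mitotic genes (right) in each cell, with 1 point a cell, and the mean and SD between cells as bars. In iHECs, 56 mitotic means lie at or below 1.65 and 9 at or above 5.69, whereas the lowest day-14 and day-17 cells lie at 3.76 and 3.37.

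Differences of single genes are given relative to the median difference of the 9674 tested genes, which was 0.93 for day 14 against iHEC, 0.28 for day 17 against day 14, -0.74 for day 21 against day 17 and 0 between the Gata2 classes of day 21. A gene was called higher or lower where this relative difference passed 1 on the log2 scale in either direction. The share of all tested genes so called stands beside each such count of members, since a share near it is no feature of the members. It was computed with and without centring only, so counts under other settings cannot be weighed against it.

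From iHEC to day 14, 16 of 16 S-phase genes were called higher, against 27.3% of all tested genes, and their median relative difference was 3.83. Without centring on the median gene the count was also 16, against 48% of all. Rrm2, the small subunit of the ribonucleotide reductase that makes deoxynucleotides, lay furthest apart. It had a lowest, median and highest level of 0, 0 and 939 TPM in iHECs and of 239, 536 and 1217 TPM at day 14, a relative difference of 6.54. The ranges overlapped, but 16 of 65 iHECs had Rrm2 above 1 TPM (24.6%, 95% interval 14.8 to 36.9 by the exact Clopper-Pearson method, counting error only) against 21 of 21 day-14 cells. Mcm5 and Mcm7, helicase subunits, had iHEC medians of 0 and 0.33 TPM and day-14 medians of 253 and 330 TPM, with relative differences of 5.31 and 5.13. Their highest iHECs, at 274 and 338 TPM, lay inside the day-14 range of 132 to 473 TPM for Mcm5 and 120 to 541 TPM for Mcm7.

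At the other end of the S-phase list were Pcna and Tyms, which most iHECs already held, and Ccne2, which few did. Pcna, the sliding clamp of the DNA polymerases, passed 1 TPM in 61 of 65 iHECs with a median of 203 TPM (0 to 1596), and had a median of 647 TPM (308 to 1133) at day 14, a relative difference of 1.32 and the smallest of the list. Tyms, the enzyme that makes thymidylate, had medians of 28.1 and 70.3 TPM and a relative difference of 1.42. Ccne2, a cyclin of the G1 to S step, was above 1 TPM in 12 of 65 iHECs, with medians of 0 and 22.8 TPM and a relative difference of 1.48. Among the helicase subunits the iHECs also differed: Mcm3 and Mcm6 were above 1 TPM in 50 and 46 of the 65 cells, but Mcm2, Mcm4, Mcm5 and Mcm7 in 29, 25, 20 and 25. At day 14 all 6 were above 1 TPM in all 21 cells. The loading factor Cdc6, the helicase partner Cdc45, the cyclin gene Ccne1 and the transcription factor gene E2f1 were above 1 TPM in only 7, 9, 10 and 13 iHECs.

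Of the 26 mitotic genes, 23 were called higher at day 14 and none lower, against 27.3% and 24.4% of all tested genes, with a median relative difference of 3.47. Without centring, 26 were higher and none lower, against 48% and 11.5% of all. Birc5, the survivin subunit of the chromosomal passenger complex, had a lowest, median and highest level of 0, 0 and 1144 TPM in iHECs and 202, 476 and 706 TPM at day 14, a relative difference of 6.47. Ccnb1, the B-type cyclin that activates Cdk1, went from 0, 0 and 1537 TPM to 52, 257 and 787 TPM, a relative difference of 5.44. Cdca3, which helps trigger mitotic entry, had medians of 0 and 214 TPM and a relative difference of 5.02. In all 3 the highest iHEC reached into or past the day-14 range while most iHECs were at 0.

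The 3 mitotic genes that were not called, Mki67 (0.39), Cenpe (0.55) and Cenpf (0.59), had medians of at most 7.74 TPM in every group. Mki67, whose product coats mitotic chromosomes, had a median of 3.19 TPM at day 14, 6.00 TPM at day 17 and 5.48 TPM at day 21, and its highest cell was an iHEC at 199 TPM. Cenpe, a kinetochore motor, and Cenpf, a kinetochore protein, had day-14 medians of 7.72 and 3.99 TPM. Just above the fold lay Foxm1 (1.10), the transcription factor of late cell cycle genes, with medians of 0 and 5.37 TPM, and Kif4 (1.12), a chromosome-bound motor, with 0 and 7.64 TPM. These are genes with long transcripts: the longest annotated transcripts of Cenpf, Mki67 and Cenpe (GENCODE vM21, GRCm38) have 11130, 10061 and 7910 bases, the most of the 46 members. Across the 26 mitotic genes, Spearman's correlation between transcript length and level ran from -0.53 (iHEC) through -0.75 (day 14) and -0.70 (day 17) to -0.66 (day 21). Spearman's correlation between length and the relative difference from iHEC to day 14 was -0.83, against -0.16 over the 9111 tested genes that have a length and -0.12 over the 16 S-phase genes. Length and level share the same TPM estimate, genes are not independent replicates, and the part of length in these levels was not tested.

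Of the 4 other replication genes, Ung (4.49), a uracil-removing enzyme, Chaf1b (4.19), a chromatin assembly subunit, and Rfc4 (2.42), a clamp loader subunit, were called higher. Slbp (0.21), the protein that binds the stem-loop of histone messages, was not, and passed 1 TPM in 60 of 65 iHECs.

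**Figure D2:**
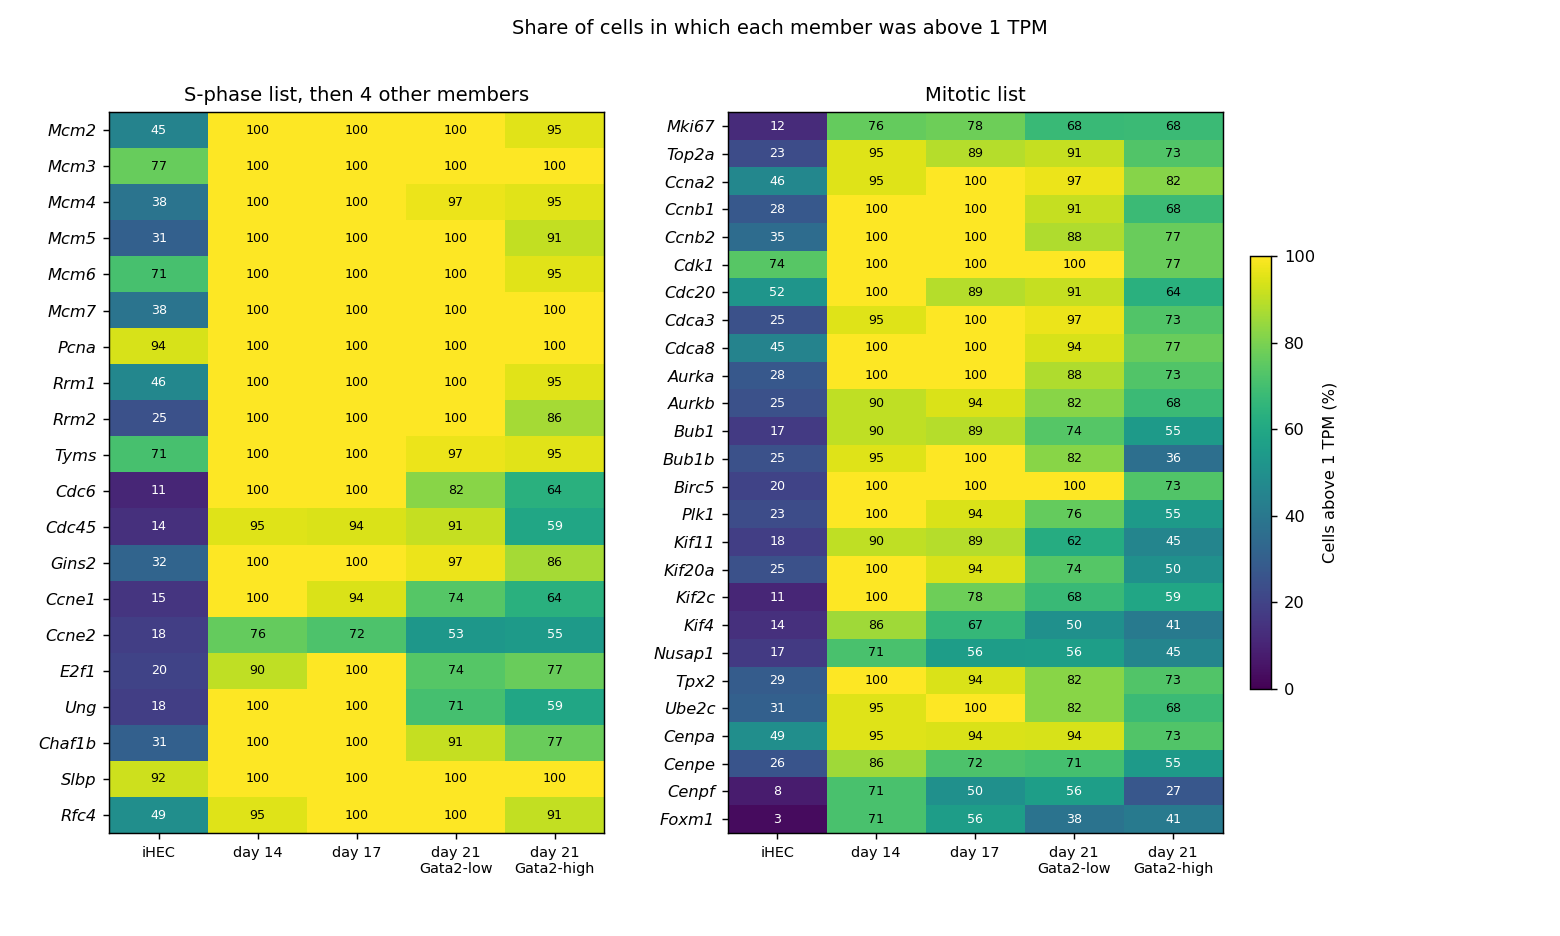
Percentage of cells in which each of the 46 members was above 1 TPM, by group, with day 21 divided at 31 TPM of Gata2. In iHECs the share spans 3% (Foxm1) to 94% (Pcna), at days 14 and 17 most members are at or near 100%, and at day 21 the Gata2-high column lies below the Gata2-low column for most mitotic genes.

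The low mean of the mitotic list in iHECs was made of a few cells with nearly the whole list and many with little of it. The number of mitotic members above 1 TPM in a cell had a median of 5 of 26 (0 to 26) in iHECs, 25 (13 to 26) at day 14, 24 (17 to 26) at day 17 and 21 (1 to 26) at day 21. No iHEC held between 11 and 21 members: 56 held 10 or fewer and 9 held 22 or more. This count depends on the bound of 1 TPM, since with any value above 0 TPM 24.6% of iHECs held at least 13 members. The share of cells with at least 13 members above 1 TPM was 9 of 65 iHECs (13.8%, exact 95% interval 6.53 to 24.7), 21 of 21 at day 14, 18 of 18 at day 17 and 43 of 56 at day 21 (76.8%). None of the 9 iHECs belonged to a near-identical pair. Their number of genes above 1 TPM ran from 4705 to 7533, their endothelial marker mean from 3.20 to 7.69 and their blood marker mean from 0.18 to 6.17, against 0.29 to 5.92 in the other 56 iHECs. Blood markers in these cells thus spanned nearly the same range as in the rest, but a range gives only the extreme cells. Over all 65 iHECs, Spearman's correlation with the blood marker mean was 0.29 for the mitotic mean and 0.39 for the S-phase mean. With the endothelial marker mean, both were near 0.10. These values share the cell's library, and their cause was not tested. The highest of 65 iHECs exceeded the highest of 21 day-14 cells for 24 of 26 mitotic and 7 of 16 S-phase genes. The larger group has more cells that can hold the highest value, and the share over all tested genes was not computed. These counts are therefore not read as a feature of either list. Ccnb2, a B-type cyclin, reached 2262 TPM in an iHEC against 485 TPM at day 14, and Cdc20 reached 2566 TPM against 847 TPM.

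S-phase genes showed no such gap. The number of S-phase members above 1 TPM had a median of 6 of 16 (1 to 16) in iHECs, with cells at every number in between, and of 16, 16 and 15 at days 14, 17 and 21. With at least 13 mitotic and at least 8 S-phase members as the bounds, 9 iHECs passed both, 14 passed only the S-phase bound and 42 passed neither, with none past the mitotic bound alone. The median number of genes above 1 TPM was 5867, 5868.5 and 4533.5 in these 3 sets. Among iHECs with at least 5000 genes above 1 TPM, 8 of 31 held at least 13 mitotic members (25.8%).

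**Figure D3:**
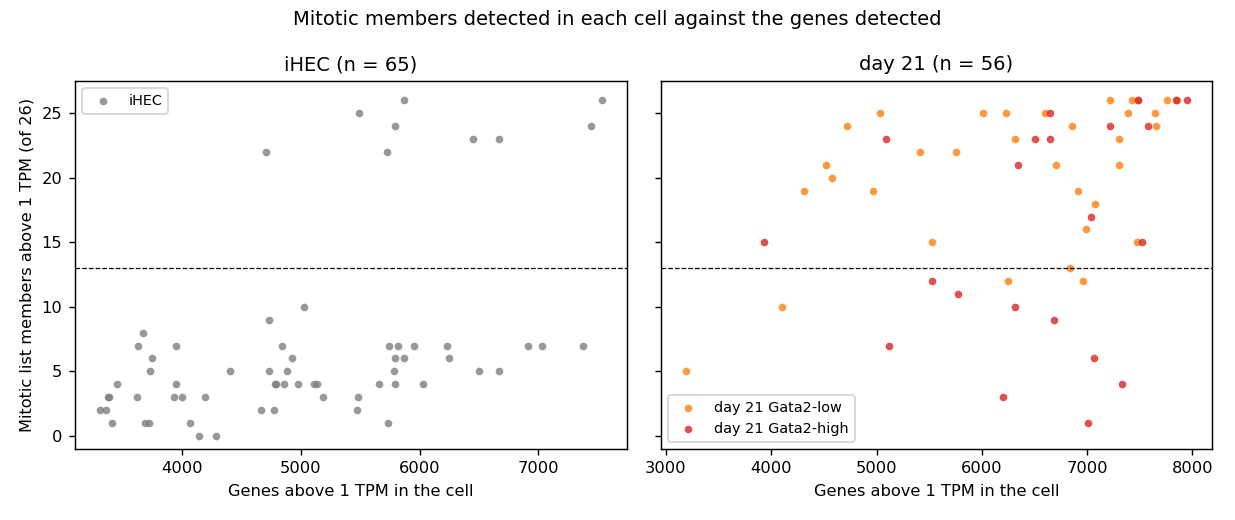
Number of the 26 mitotic members above 1 TPM (vertical axis) against the number of genes above 1 TPM in the same cell (horizontal axis), for the 65 iHECs (left) and the 56 day-21 cells (right, by Gata2 class), with the dashed line at 13 members. The iHECs leave a gap between 10 and 22 members at all numbers of genes, while day-21 cells fill the range from 1 to 26.

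From day 14 to day 17, some mitotic genes were called lower. Relative to the median gene, calls in the S-phase list were no more frequent than among all genes. Of the mitotic genes, 8 were called lower and none higher, against 7.09% and 9.03% of all tested genes. Of the S-phase genes, 1 of 16 was called higher (6.25%, below the share of all) and none lower. Without centring, 5 mitotic genes were lower (19.2%, against 3.89% of all) and 4 S-phase genes higher (25%, against 15.5% of all). With near-identical pairs counted once, 10 mitotic genes were lower. T lymphoid markers averaged 0.40 (0 to 1.298) at day 14 and 2.64 (0 to 3.48) at day 17, with a median of 1 and 5 of 10 above 1 TPM. Neutrophil and monocyte markers averaged 2.65 (0.084 to 3.998) and 1.46 (0.11 to 6.84), with a median of 5 and 2 of 10, and the part of these differences was not tested. The 8 mitotic genes lower at day 17 were Ccnb1, Cdc20, Birc5, Plk1, Kif2c, Nusap1, Ube2c and Cenpa. Ube2c, the ubiquitin-conjugating enzyme of the anaphase-promoting complex, had a lowest, median and highest level of 0, 340 and 1121 TPM at day 14 and 2.27, 38.1 and 953 TPM at day 17, a relative difference of -2.55. Cdc20, the activator of that complex, went from 84.8, 362 and 847 TPM to 0, 107 and 597 TPM, a relative difference of -2.36. Nusap1, a spindle microtubule protein, had medians of 16.4 and 1.52 TPM and a relative difference of -1.69. The groups overlapped in each of these genes, and the day-17 medians were the lower ones.

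The other mitotic genes lay closer together. Birc5 was just past the fold (-1.04, medians 476 and 347 TPM), and Cenpf (-0.97) and Tpx2 (-0.96), a spindle assembly factor, were just short of it. Bub1b (0.52) and Top2a (0.51), a spindle checkpoint kinase and the DNA topoisomerase of dividing cells, had the highest relative differences, followed by Aurkb (0.33), the kinase of the passenger complex. In the S-phase list, E2f1 was higher (1.20, medians 35.1 and 65.3 TPM, ranges 0 to 95.6 and 4.02 to 146), and Mcm4 (0.97, medians 127 and 294 TPM) and Mcm6 (0.88, medians 276 and 685 TPM) followed. All 6 Mcm genes had higher medians at day 17 than at day 14. The lowest relative differences of the S-phase list were those of Ccne1 (-0.49), Rrm2 (-0.44) and Tyms (-0.32), with medians of 103 and 124, 536 and 527, and 70.3 and 69.5 TPM. None of the 4 other replication genes passed the fold. Without the 2 cells low in blood markers, 2 S-phase genes were called higher in place of 1.

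From day 17 to day 21, a few members of each list were called. Of the S-phase genes, 5 were called lower (Mcm2, Mcm4, Mcm5, Cdc6 and Ccne1) and none higher, against 13.1% and 10.3% of all tested genes. With a pseudocount of 0.1, 3 S-phase genes were lower and 2 higher (Pcna and Tyms). Of the mitotic genes, 2 were called lower and 2 higher, shares that do not exceed those of all genes. Without centring, 14 S-phase and 10 mitotic genes were lower and none of either list higher, against 38.5% lower and 2.33% higher of all, since the median gene was itself 0.74 lower at day 21. Ccne1 had a lowest, median and highest level of 0, 124 and 302 TPM at day 17 and 0, 32.3 and 372 TPM at day 21, a relative difference of -1.57. Mcm2 went from 257, 458 and 906 TPM to 0, 147 and 616 TPM (-1.25), and Cdc6 from 2.25, 73.5 and 188 TPM to 0, 27.1 and 156 TPM (-1.23). The days overlapped in these genes, and all 3 reached 0 TPM at day 21. Mcm4 was just past the fold (-1.05) and E2f1 just short of it (-0.94). Mast cell markers averaged 1.298 at day 17 (0.20 to 2.17) and 5.08 at day 21 (2.101 to 8.75), with a median of 2 and 6 of 10 above 1 TPM, and their part in these values was not tested.

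Tyms (0.82) and Pcna (0.53) had the highest relative differences of the S-phase list, with day-17 and day-21 medians of 69.5 and 77.9 TPM and of 863 and 791 TPM, and Gins2 (-0.36), a subunit of the helicase complex, came next. Among the mitotic genes, Nusap1 (1.53, medians 1.52 and 1.22 TPM) and Mki67 (1.11, medians 6.00 and 5.48 TPM) were called higher, although their medians over cells were lower. Their highest cells stood at 80.7 and 17.4 TPM at day 17 and at 288 and 85.1 TPM at day 21. Ube2c (0.99, medians 38.1 and 96.5 TPM) was just short of the fold. Bub1b (-1.71, medians 48.8 and 14.4 TPM) and Kif20a (-1.21, medians 89.1 and 27.2 TPM), a cytokinesis motor, were called lower, and Aurkb (-0.89) was just short. Ung (-2.08, medians 153 and 46.6 TPM) was the lowest of all 46 members and the only one of the 4 other replication genes that passed the fold.

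**Figure D4:**
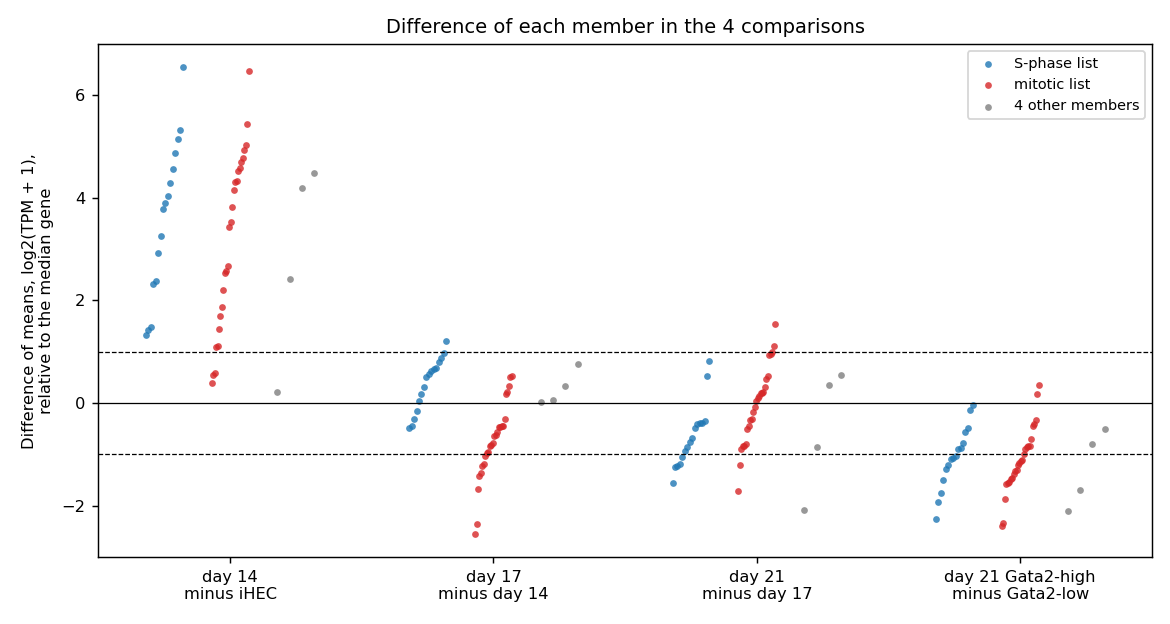
Difference of mean log2(TPM + 1) of each member, relative to the median difference of the 9674 tested genes, in the 4 comparisons, with 1 point a gene and dashed lines at the fold of 1. All but 4 points of the first comparison lie above 1, and 27 of the 46 members lie below -1 in the last.

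Day-21 cells differed widely among themselves. Mitotic list means ran from 0.19 to 7.82, and 13 of the 56 cells held fewer than 13 of the 26 members, against none of the 39 cells of days 14 and 17. Day-21 cells were then read by Gata2, a transcription factor of early blood progenitors and mast cells. Gata2 was at or above 31 TPM in 22 cells (66.0 to 1739 TPM) and at or below 9.18 TPM in the other 34, with no cell between. The 2 classes had a median of 6665.5 and 6769.5 genes above 1 TPM, high class first. Mast cell markers (Cpa3 and 9 others) averaged 7.79 in the Gata2-high cells (4.92 to 8.75) and 3.33 in the Gata2-low cells (2.101 to 4.57), with a median of 7 and 6 of the 10 above 1 TPM. T lymphoid markers (Cd3e and 9 others) averaged 0.60 (0 to 2.102) and 3.97 (1.20 to 6.34), with a median of 1 and 6 of 10. The part of this difference in cell type in the values below was not tested.

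Of the 46 members, 27 were called lower in the Gata2-high cells and none higher. The S-phase list averaged 5.62 ± 1.25 in the 22 Gata2-high and 6.68 ± 1.304 in the 34 Gata2-low cells, and the mitotic list 3.76 ± 2.46 and 4.86 ± 1.78. Both differences (-1.06 and -1.10) are smaller than the SD between cells of either class, and the classes overlapped. Of the S-phase genes, 9 of 16 were called lower and none higher, and of the mitotic genes 16 of 26 lower and none higher, against 10.2% lower and 13% higher of all tested genes. The median difference of all genes was 0 here, so centring changed no count. With a pseudocount of 10 the counts were 4 S-phase and 3 mitotic genes. With Gata2 divided at 1 TPM the S-phase count was 2, and a further count, of mitotic genes lower or of either list higher, also changed. The shares of all tested genes under these settings were not computed. At least 13 mitotic members were above 1 TPM in 13 of 22 Gata2-high cells (59.1%, exact 95% interval 36.4 to 79.3) and in 30 of 34 Gata2-low cells (88.2%, 72.5 to 96.7). These intervals hold counting error only and do not compare the classes.

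Cdc45, which joins the helicase at origins, had a lowest, median and highest level of 0, 85.8 and 356 TPM in the Gata2-low and 0, 26.3 and 169 TPM in the Gata2-high cells, a difference of -2.26. Mcm5 went from 21.1, 246 and 690 TPM to 0, 119 and 365 TPM (-1.94), and Mcm6 from 43.1, 500.2 and 987 TPM to 0.57, 129 and 435 TPM (-1.75). Mcm4 was just past the fold (-1.04) and Ccne1 just short of it (-0.90). Ccne2 (-0.04), E2f1 (-0.15) and Tyms (-0.48) differed least. Of the 4 other replication genes, Chaf1b (-2.10) and Rfc4 (-1.69) were called lower.

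In the mitotic list, Birc5 had 1.98, 428 and 1533 TPM in the Gata2-low and 0, 264 and 1043 TPM in the Gata2-high cells, a difference of -2.39. It was above 1 TPM in 34 of 34 and 16 of 22 cells. Bub1b (-2.34, medians 41.4 and 0 TPM) was above 1 TPM in 28 of 34 and 8 of 22 cells, and Cdc20 (-1.86, medians 80.3 and 37.5 TPM) in 31 of 34 and 14 of 22. The classes overlapped in all 3 genes. Top2a was just past the fold (-1.004) and Tpx2 just short of it (-0.90). Foxm1 (0.35) and Mki67 (0.18) were the 2 mitotic genes with a positive difference, and Nusap1 (-0.34) came next.

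Correlations over cells were read within each list and between the lists. Within a group, the median Spearman's correlation over all pairs of mitotic genes was 0.48 (iHEC), 0.39 (day 14), 0.48 (day 17) and 0.60 (day 21). For pairs of S-phase genes it was 0.35, 0.42, 0.18 and 0.46, and for all pairs of genes 0.03, 0.05, 0.02 and 0.06. Pairs of 1 mitotic and 1 S-phase gene had medians of 0.32, -0.24, -0.15 and -0.03. Spearman's correlation between the 2 list means was 0.58 over 65 iHECs, -0.51 over 21 day-14 cells, -0.11 over 18 day-17 cells and 0.06 over 56 day-21 cells. At day 21 it was -0.25 over the Gata2-low and 0.30 over the Gata2-high cells. The points share the cell's library: the correlation between the number of genes above 1 TPM and the S-phase mean was 0.62, 0.06, 0.25 and 0.46, and with the mitotic mean 0.55, 0.59, 0.75 and 0.30. With a linear trend over that number removed, the correlation between the lists was -0.74 at day 14, -0.40 at day 17 and -0.19 at day 21. These values describe the cells measured, with no p.

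**Figure D5:**
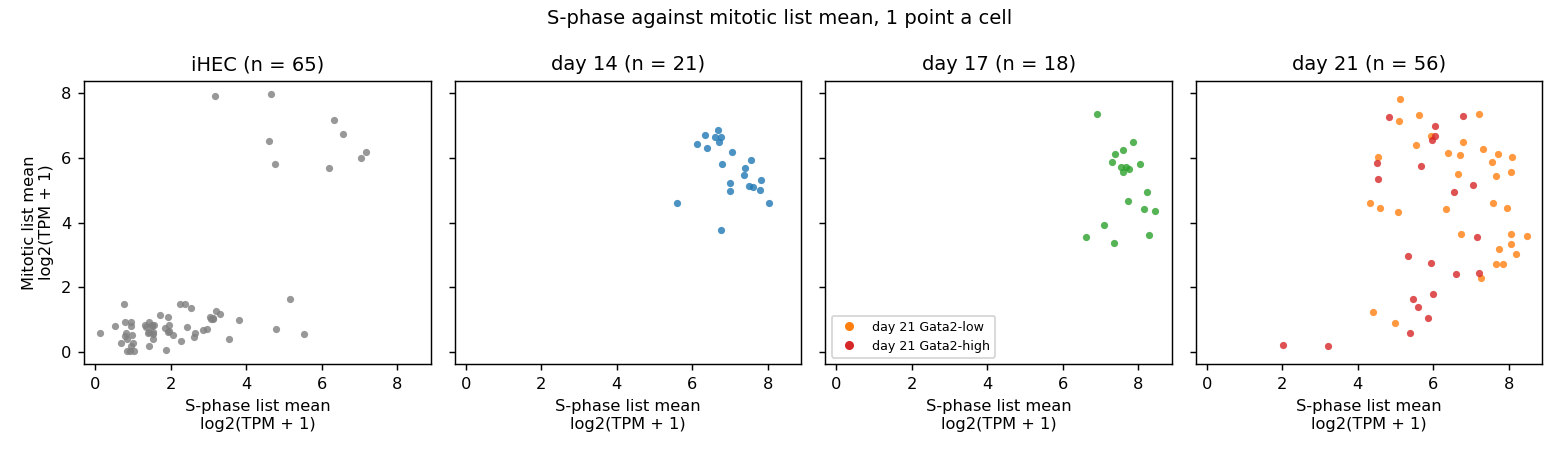
Mitotic list mean against S-phase list mean, both in log2(TPM + 1), with 1 point a cell and a panel a group. The 9 iHECs with high mitotic means stand apart from a band of 56 below 2, day-14 cells slope downward (correlation -0.51), and day-21 cells spread over both axes.

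Other genes of the same machinery were read from lists of names. Of 48 further S-phase genes, 39 were called higher at day 14 than in iHECs, 3 higher at day 17 than at day 14, 14 lower at day 21 than at day 17 and 26 lower with 1 higher (Blm, 1.39) in the Gata2-high than in the Gata2-low cells. The most extreme were Tk1 (4.98), a thymidine kinase, and Rfc5 (4.90) in the first comparison and Gins1 (-2.59) and Dtl (-2.23) in the last. Of the 47 tested of 48 further mitotic genes, the counts in the same order were 35 higher with 1 lower, 2 higher with 5 lower, 4 higher with 6 lower, and 20 lower with 1 higher (Kif23, 2.52). Spc24 (5.04), a kinetochore subunit, and Mybl2 (4.52), the gene of B-Myb, were the furthest apart at day 14, while Pttg1 (-2.31), the securin gene, was lower. Of all tested genes, 27.3% were higher and 24.4% lower in the first comparison, and 9.03% and 7.09% in the second. The shares were 10.3% and 13.1% in the third and 13% and 10.2% in the last. Below them lay the S-phase genes higher at day 17 (6.25%) and the mitotic genes higher at day 17 (4.26%). The mitotic genes higher (8.51%) and lower (12.8%) at day 21 and each count of 1 gene were below them too.

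Genes that act before S phase were read in 3 lists, against the shares of all tested genes given above. Among 10 G1 cyclins, kinases and regulators, Cdk6 (2.89, medians 0 and 27.05 TPM), Ccnd2 (2.66), Cdk2 (1.34) and Ccnh (1.01) were called higher at day 14, and Ccnd1 (-2.52) lower, which is 40% and 10% of the list against 27.3% and 24.4% of all. Ccnd1, a D-type cyclin, passed 1 TPM in 49 of 65 iHECs, then in 13 of 21, 9 of 18 and 2 of 56 cells of days 14, 17 and 21. Ccnd2 was above 1 TPM in 44 of 65, 20 of 21, 18 of 18 and 56 of 56 cells, and Ccnd3 in all 160 cells. Ccnd3 was the only one of the 10 called between the Gata2 classes (-1.31, medians 774 and 302 TPM), a share of 10% against 10.2% of all. Of 7 kinase inhibitor genes 3 were tested, and Cdkn1b (-3.98) and Cdkn1a (-3.28) were called lower at day 14. Cdkn1a, the gene of p21, had medians of 994, 168, 152 and 116 TPM from iHEC to day 21. Cdkn1b, the gene of p27, had 18.5, 1.37, 4.25 and 3.25 TPM. Of 19 tested genes of the Rb, E2F and p53 pathways, 4 were higher at day 14, led by Tfdp1 (3.22) and E2f4 (2.65), and 4 lower, led by Btg2 (-4.92) and Rb1 (-2.33). Each is 21.1% of the list, below the 27.3% and 24.4% of all tested genes.

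The non-members whose levels followed the lists most closely were found by the mean over the 4 groups of Spearman's correlation with the list mean within a group. For the S-phase list they included Rpa2 (0.64), Exo1 (0.62), Uhrf1 (0.59) and Mcm10 (0.58), where the median of all genes was 0.09. For the mitotic list they were Hmmr (0.77), Kif22 (0.76), Fam64a (0.75), Ckap2l (0.72) and Ska1 (0.68), where it was 0.10. These 4 genes stood on the list of further S-phase genes, and Hmmr, Kif22 and Ckap2l on that of further mitotic genes.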

How the data were processed

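Single cells were sorted, and cDNA was amplified and made into libraries with commercial whole-transcriptome and tagmentation kits. Per the study's methods, reads were aligned to mm10 with HISAT2 2.1.0 and TPM was estimated with StringTie 1.3.4, and the submitters' processing notes also name SAMtools 0.1.19. The deposited file is 1 table of TPM values made by the authors, with 23420 genes and 160 cells whose names give their group. Each cell's values sum to 988686 to 999108, and read depth is unknown. The members and all gene lists were chosen with earlier results of these data known. Genes above 1 TPM in more than 30 cells (9674) were compared as differences of mean log2(TPM + 1) between groups, given relative to the median difference of these genes. Each group is 1 sample, so no test was run, and a fold of 1 on the log2 scale served as the bound. Shares of cells carry exact Clopper-Pearson 95% intervals for counting error only.

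Named were the 3 largest and 3 smallest differences of each list and comparison, the members next to the bound, the most extreme genes of the other lists and the 5 non-members most like each list, of which 1 is not reported here. Gata2 divided day 21 at 31 TPM. Alternatives were pseudocounts of 0.1 and 10, no filter, medians over cells, size-factor scaling, percentile ranks, differences not centred, an S-phase list with the 4 other genes, Pearson's r, removal of a linear trend over genes per cell, other bounds on detection and Gata2, a fold of 2 and cells with at least 5000 genes. Counting near-identical pairs once and leaving out 2 cells low in blood markers were chosen after seeing the data. Python 3.11.15, pandas 2.3.3, numpy 2.4.6 and scipy 1.17.1 were used. The calling of differences was checked on day-21 cells divided at random into equal sets, with chosen genes raised in 1 set. That check did not cover genes at low levels, groups of unequal size or groups that differ in genes per cell. Transcript lengths are from GENCODE vM21 and promoters from RefSeq (GRCm38.p6).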

Additional observations from a re-analysis of the deposited data

How the results depend on the processing

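Limits first: each group is 1 sample of cells, read depth is unknown, and day, sort gate and genes per cell change together, so no difference carries a replicate check. No paired analysis was possible because the numbers in the cells' names only count cells. A list difference was taken as moved where it changed by more than the smaller SD between cells, a median where it changed by more than the SD, and a correlation where it changed by more than 0.2. Percentile ranks are on another scale, so their 8 values were judged only by a change of direction where the main difference passed 1. Those with a smaller main difference could not count as moved. Over the list differences, medians and correlations under the alternatives, 148 values, these 8 among them, did not count as moved and 16 did. Between days 14 and 17 and between the Gata2 classes, both list differences were smaller than their bound. The mitotic difference from day 17 to 21 was smaller too. For these differences, staying within the bound does not show that they hold. The list differences kept their direction, except that the mitotic difference from day 17 to 21, which was -0.02, became 0.02 with near-identical pairs counted once and 0.04 without the 2 cells low in blood markers. Counting near-identical pairs once moved none of them. From iHEC to day 14 the S-phase list difference of 3.59 became 4.43 with medians over cells, 4.52 with no filter on low values, 4.46 with a pseudocount of 0.1 and 2.44 with 10. The mitotic difference of 3.18 became 4.60, 4.10, 4.34 and 1.93 in the same order. The S-phase difference from day 17 to 21 was -1.38 in place of -0.64 with no filter, where the median gene no longer differs. At day 14 the median number of members above 10 TPM was 15 for the S-phase list and 21 for the mitotic list, against 16 and 25 above 1 TPM. With a linear trend over genes per cell removed, the correlation of the lists was -0.74 at day 14, -0.40 at day 17, -0.19 at day 21, -0.51 in Gata2-low and 0.092 in Gata2-high cells.

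Counts of calls depended more on the settings. Shares of all tested genes were computed with and without centring only, so the counts under the other settings cannot be weighed against them. Between the Gata2 classes the mitotic count of 16 lower became 22 with a pseudocount of 0.1, 3 with a pseudocount of 10 and 2 with a fold of 2. The S-phase count of 9 became 10, 4 and 1 in the same order, and 2 with Gata2 divided at 1 TPM. Over both lists and both directions, 2 counts moved under that division, this one among them, and 2 did not. From day 14 to 17 the mitotic count of 8 lower became 11 with a pseudocount of 0.1, 10 with near-identical pairs counted once, 5 without centring, 4 with a pseudocount of 10 and 2 with a fold of 2, and the S-phase count of 1 higher ran from 0 to 4. From day 17 to 21 the S-phase count of 5 lower ran from 0 with a fold of 2 to 14 without centring, with 2 higher at a pseudocount of 0.1, and the mitotic count of 2 lower from 0 to 10. The mitotic count of 2 higher ran from 0 to 4, the 4 without the 2 cells low in blood markers. The share of iHECs with at least 13 mitotic members was 24.6% with any value above 0 TPM and 25.8% among cells with at least 5000 genes, against 13.8%. At day 21 it was 89.3% with any value above 0 TPM, against 76.8%, and in Gata2-low cells 97.1%, against 88.2%. Apart from settings whose construction sets the change, the cause was not tested.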
